A study of Arabidopsis thaliana with 16 samples.

Results

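DRM1 (AT1G28330), DRM2 (AT2G33830) and HIS1-3 (AT2G18050) are 3 genes of Arabidopsis thaliana used as markers of dormant axillary buds. They were chosen by locus, with earlier results of these data known, and are 3 of the 33602 loci in the deposited count table. They hold 9 of its 41671 transcript models, which are the annotated splice forms. Each level below is the sum over the models of a locus unless a model is named.

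Poly(A) RNA was sequenced from the rosette region of 4 genotypes with 4 libraries each: WT, the Col-0 wild type, ckx3 ckx5, by its label a mutant of a pair of cytokinin oxidase genes, d14-7, a mutant of the strigolactone receptor gene D14, and scl28, a mutant of a GRAS transcription factor gene. Leaves, roots and elongated stem were cut away from plants with a bolt under 1 cm, and 2 to 3 plants were pooled per library. By the labels, of 5 pools per genotype the 4 with the best RNA integrity were sequenced, though the library names of scl28 run up to number 6. All plants were harvested between 9 and 11 in the morning under 16 h of light a day and 8 h of darkness, scl28 on day 25 and the other genotypes on day 23, so that for scl28 genotype and harvest day cannot be told apart. By the labels no mutant carries a further allele or treatment, and what each allele does to its gene is not stated there.

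In a plant with axillary buds, strigolactone perceived by D14 restrains bud outgrowth, and cytokinin, which CKX enzymes break down, promotes it. Within the bud the TCP transcription factor BRC1 acts in the same direction as strigolactone, and the homeodomain genes HB21, HB40 and HB53 with the abscisic acid synthesis gene NCED3 act after BRC1. DRM1 and DRM2 encode small proteins of the dormancy/auxin associated family whose transcripts are abundant in dormant buds and fall when buds grow out. HIS1-3 encodes a linker histone, a protein that binds DNA between nucleosomes, and its transcript is induced by drought and abscisic acid.

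DRM1 lies on the minus strand of chromosome 1 (9933786 to 9935440, assembly TAIR10.1). DRM2 lies on the minus strand of chromosome 2 (14308754 to 14310608) and HIS1-3 on the plus strand of the same chromosome (7845923 to 7847031). The coding sequences of DRM1 and DRM2 share 257 of 324 aligned bases (79.3%), with a longest identical run of 19 bases. That of HIS1-3 shares 76.2% of aligned bases with AT1G06760 and 73.6% with AT2G30620, the other loci annotated with a linker histone domain that were compared.

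The DRM1 models that held nearly all counts end their coding sequence in 2 ways, and the libraries differed in the balance between them. Model AT1G28330.1 skips a cassette exon at 9934451 to 9934566 and encodes 122 codons, while AT1G28330.2 includes it, stops inside it and encodes 132. AT1G28330.3 keeps the cassette and the intron after it, with the same coding sequence as AT1G28330.2. The last coding stretches of both forms are shown because they are what separates the proteins, read 5′ to 3′ from RefSeq TAIR10.1 with the stop codon in capitals (chr1:9934252-9934288 and chr1:9934500-9934566, minus strand).
AT1G28330.1: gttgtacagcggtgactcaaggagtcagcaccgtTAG
AT1G28330.2: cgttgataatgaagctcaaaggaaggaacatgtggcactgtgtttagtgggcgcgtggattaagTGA

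DRM2 has a pair of models, and the rarer form, AT2G33830.1, had counts in only some genotypes. In exon 2 the models begin 6 bases apart, and they differ elsewhere too. AT2G33830.1 starts at 14310339 and AT2G33830.2 at 14310608. Exon 3 has 67 bases in AT2G33830.1 and 321 in AT2G33830.2. Only AT2G33830.1 has an exon 4, at 14308754 to 14308939. Which of these differences the counts rest on was not tested. The first bases of exon 2 are shown for each, with the 6 bases that only AT2G33830.2 holds in capitals (chr2:14310060-14310089 and chr2:14310060-14310083, minus strand).
AT2G33830.2: GTGTAGgagaagggagcagtagtaaaactg
AT2G33830.1: gagaagggagcagtagtaaaactg

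The 250 bases before each annotated gene start are shown because DRM1 and DRM2 moved together in several comparisons and HIS1-3 did not always follow them. Capitals mark matches, on either strand, to the 7 motifs searched: the G-box CACGTG, the ABRE core ACGTG, the sugar-repressed element TTATCC, the I-box GATAAG, the TCP core GGNCCC, the evening element core AAATATCT and the homeodomain pseudopalindrome CAATNATTG. The windows are chr1:9935441-9935690 (minus), chr2:14310609-14310858 (minus) and chr2:7845673-7845922 (plus).
DRM1: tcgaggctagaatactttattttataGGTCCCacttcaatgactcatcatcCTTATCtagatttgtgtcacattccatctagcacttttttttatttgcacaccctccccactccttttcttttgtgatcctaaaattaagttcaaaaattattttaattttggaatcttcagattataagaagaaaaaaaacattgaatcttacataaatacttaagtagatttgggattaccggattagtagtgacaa
DRM2: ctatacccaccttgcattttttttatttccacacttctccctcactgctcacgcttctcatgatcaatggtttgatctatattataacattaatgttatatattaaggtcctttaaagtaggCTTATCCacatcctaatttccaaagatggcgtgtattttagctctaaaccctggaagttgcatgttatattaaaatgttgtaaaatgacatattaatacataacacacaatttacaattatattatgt
HIS1-3: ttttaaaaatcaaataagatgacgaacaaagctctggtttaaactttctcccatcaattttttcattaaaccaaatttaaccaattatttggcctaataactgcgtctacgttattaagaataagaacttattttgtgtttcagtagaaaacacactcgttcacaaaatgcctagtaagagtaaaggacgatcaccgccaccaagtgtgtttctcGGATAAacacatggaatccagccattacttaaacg

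The DRM1 window held 1 TCP core match, 224 bases before the start, and 1 I-box, 199 bases before it. The DRM2 window held an I-box and a sugar-repressed element that overlap, at 128 and 127 bases, and the HIS1-3 window held 1 sugar-repressed element at 35 bases. Of 27443 promoters of the same length, 7.35% hold the TCP core, 12.3% the I-box and 12.5% the sugar-repressed element. The G-box, which contains the ABRE core, the ABRE core itself, the evening element and the homeodomain motif were in none of the 3 windows, and 6.49%, 22.9%, 4.79% and 0.918% of all promoters hold them. In 1000 bases DRM1 had 1 G-box at 819 bases (in 14.8% of promoters of that length). DRM2 had 3 sugar-repressed elements (38.7%) and 1 evening element core at 667 bases (15.3%), and DRM1 and DRM2 each had 2 TCP core matches, a motif in 21.1% of promoters of that length; the DRM2 pair overlaps. A match describes letters only. The annotated start of DRM1 lies 171 bases before that of its model AT1G28330.1 and that of HIS1-3 lies 76 bases before that of AT2G18050.1, and a noncoding RNA locus is transcribed away from DRM1 just beyond its start.

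Before the results, the libraries were checked against their labels. They held 24334925 to 36735056 counts. SCL28 was at 14 to 18.4 CPM (counts scaled for library size and composition) in scl28 and 25.8 to 46.2 CPM in WT, and D14 at 27.7 to 33.3 CPM in d14-7 and 39.2 to 44.1 CPM in WT. D14 was as low in the ckx3 ckx5-labelled libraries (25.9 to 29.9 CPM), which differed from d14-7 by -0.12 ± 0.07 (edgeR adjusted p = 0.179), so that its level does not mark the d14-7 libraries. CKX3 went against its label, at 1.43 to 1.96 CPM in the ckx3 ckx5-labelled libraries and 0.0527 to 0.65 CPM in WT, and CKX5 overlapped (2.18 to 4.25 and 2.11 to 6.11 CPM). These libraries are therefore named by their label, and each direction given for them rests on it. All 5 axillary meristem and boundary markers (STM, CUC2, LAS, RAX1 and BRC1) had counts in every library. Their summed level was 103 to 188 CPM in WT, 119 to 139 in the ckx3 ckx5-labelled libraries, 91.1 to 108 in d14-7 and 131 to 188 in scl28. Most of this sum was STM (means of 137, 110, 94.5 and 148 CPM in the same order). The 6 leaf photosynthesis markers also had counts in every library, and other green tissue makes these transcripts too.

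DRM1 was highest in the ckx3 ckx5-labelled libraries and lowest in d14-7. In WT replicates 1 to 4 its level was 13.1, 24.2, 28.0 and 44.4 CPM, a mean of 27.4 ± 13 (SD, n = 4). In the ckx3 ckx5-labelled libraries it was 91.4, 99.3, 82.2 and 65.1 CPM (84.5 ± 14.7). These 2 groups did not overlap, and the highest WT library stood below the lowest of the others. In d14-7 DRM1 was at 8.39, 7.89, 10.6 and 10.3 CPM (9.28 ± 1.34), below every WT library. In scl28 it was at 22.0, 20.7, 25.9 and 27.2 CPM (23.9 ± 3.1), inside the range of WT.

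DRM2 followed the same order between the ckx3 ckx5-labelled libraries, WT and d14-7, but over a wider range, and scl28 lay below WT. In WT its level was 5.2, 9.05, 8.6 and 18.2 CPM (10.3 ± 5.56). The ckx3 ckx5-labelled libraries held 42.5, 57.1, 40.1 and 24.8 CPM (41.1 ± 13.2). All 4 of these stood above all of WT. In scl28 DRM2 was at 2.79, 3.2, 2.24 and 2.98 CPM (2.8 ± 0.411), and in d14-7 at 0.421, 0.528, 0.494 and 1.07 CPM (0.627 ± 0.296), which rest on 10, 17, 15 and 37 counts. None of the 4 groups overlapped with another for DRM2. How many of all loci separate in this way is not given here, for this or the other genes.

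HIS1-3 had a different order. In WT it was at 3.06, 7.02, 6.98 and 14.4 CPM (7.86 ± 4.72) and in scl28 at 6.07, 10.6, 8.91 and 7.28 CPM (8.23 ± 1.98), and these groups overlapped in full. Its level in the ckx3 ckx5-labelled libraries was 2.4, 3.51, 1.44 and 0.958 CPM (2.08 ± 1.13). Replicate 2 of those lay above WT replicate 1, and the other 3 lay below all of WT. In d14-7 HIS1-3 was at 1.05, 0.714, 1.05 and 0.576 CPM (0.849 ± 0.242), from 20 to 32 counts, below all of WT and scl28.

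**Figure D1:**
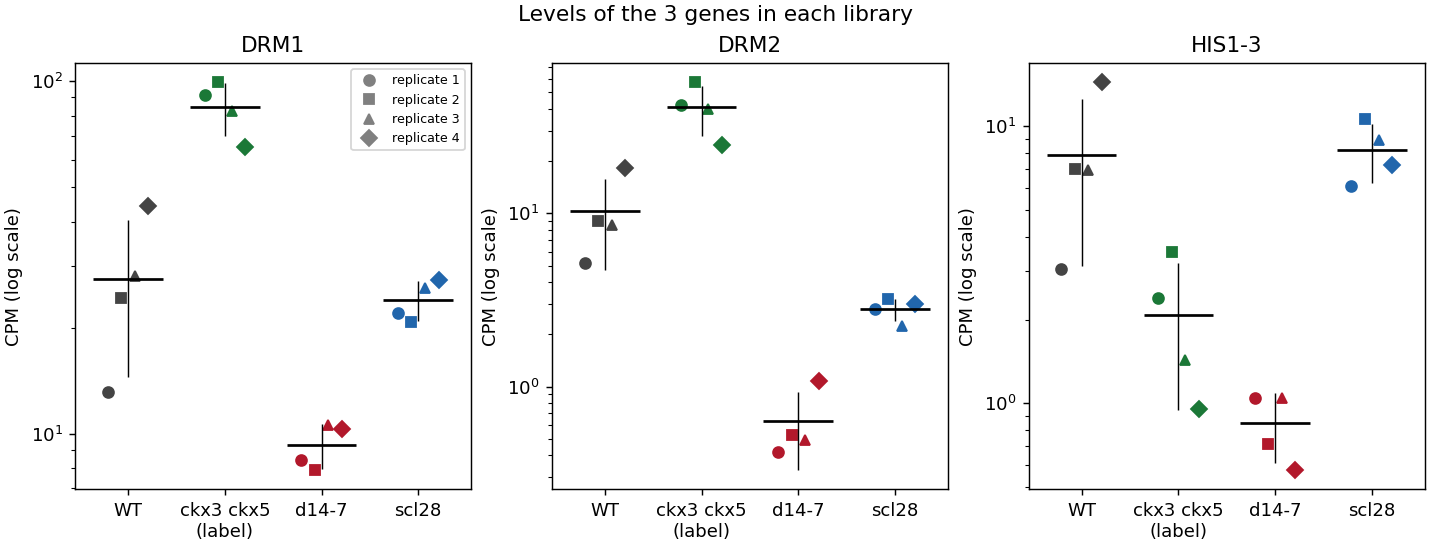
Levels of DRM1, DRM2 and HIS1-3 in CPM on a log axis, with 1 point per library, a horizontal bar at the group mean and a vertical line of 1 SD either way. DRM1 and DRM2 were highest in the ckx3 ckx5-labelled libraries (means 84.5 and 41.1 CPM), where HIS1-3 was low (2.08 CPM), and all 3 were lowest in d14-7.

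WT was the most spread group by the fold between its highest and lowest library, though not by the SD of DRM1 or DRM2, which was larger in the ckx3 ckx5-labelled libraries. WT replicate 1 was lowest and replicate 4 highest for all 3 genes, with 3.39-fold, 3.5-fold and 4.7-fold between them for DRM1, DRM2 and HIS1-3. The median locus differed 1.34-fold between its highest and lowest WT library, computed with a prior count of 2. The leaf score, the mean log2 CPM of the 6 leaf photosynthesis markers, ran the other way at 11.2, 10.85, 10.54 and 10.42 in WT replicates 1 to 4. It was 10.33 to 10.56 in the ckx3 ckx5-labelled libraries, 10.85 to 11.16 in d14-7 and 10.47 to 10.67 in scl28. Over the 16 libraries, which share only the scaling, the Pearson correlation of the log2 level with this score was -0.804 for DRM1, -0.667 for DRM2 and -0.454 for HIS1-3, and -0.677, -0.32 and -0.414 for deviations from the genotype means. Each comparison below was also fitted with the leaf score as a covariate, and those values are given with it. The scores of d14-7 did not overlap those of the ckx3 ckx5-labelled libraries or scl28. In those comparisons the values with the covariate rest on the slope within genotypes, which WT spans most widely, and leaf and genotype cannot be told apart.

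**Figure D2:**
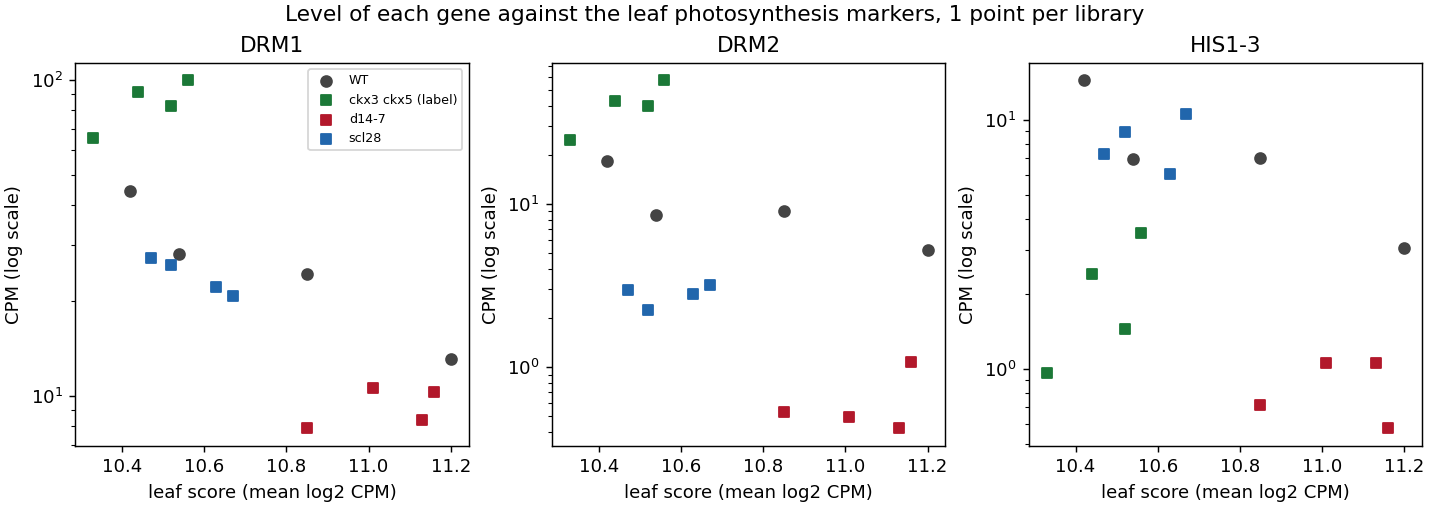
Level of each gene in CPM on a log axis against the leaf score (mean log2 CPM of 6 leaf photosynthesis markers), with 1 point per library coloured by genotype and WT as circles. WT alone spanned leaf scores of 10.42 to 11.2, and its DRM1 level ran from 44.4 down to 13.1 CPM over that range.

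All 3 genes fell in d14-7 against WT, where 38.7% of the 20947 loci tested were called in either direction and 4305 fell. A change here is the log2 fold change of a model fitted with edgeR over all 16 libraries, with its standard error, and a gene is called where its adjusted p is under 0.05. DRM2 changed by -3.99 ± 0.42, a 15.9-fold lower level, with an edgeR adjusted p of 1.03e-05. It was the 13th in size among all falls. HIS1-3 changed by -3.23 ± 0.46 (9.4-fold lower, edgeR adjusted p = 0.000121) and DRM1 by -1.56 ± 0.26 (2.96-fold lower, edgeR adjusted p = 0.000449). With the leaf score as a covariate DRM2 changed by -3.57, HIS1-3 by -2.63 and DRM1 by -1.04, and the calls of all 3 genes held. Of the axillary meristem and boundary markers STM (-0.54 ± 0.15, edgeR adjusted p = 0.0124), RAX1 (-1.1 ± 0.25, edgeR adjusted p = 0.004) and BRC1 also fell in d14-7, while LAS (-0.59 ± 0.29) and CUC2 (0.06 ± 0.19) were not called, and their part in the result was not tested. In bulk tissue, fewer cells of a type and less RNA per cell cannot be told apart.

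In the ckx3 ckx5-labelled libraries all 3 genes also differed from WT, but not in 1 direction, in a comparison where 29.6% of loci were called. DRM1 rose by 1.62 ± 0.25 (3.07-fold, edgeR adjusted p = 0.000131) and DRM2 by 1.99 ± 0.30 (3.98-fold, edgeR adjusted p = 0.000125). They were the 89th and 45th in size among all rises. HIS1-3 changed by -1.94 ± 0.41 (3.83-fold lower, edgeR adjusted p = 0.002). The changes with the leaf score were 1.33 for DRM1, 1.77 for DRM2 and -2.24 for HIS1-3, all still called.

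In scl28 only DRM2 of the 3 genes passed the test against WT, where 19.8% of loci were called. It changed by -1.89 ± 0.34 (3.7-fold lower, edgeR adjusted p = 0.00104). DRM1 stood at -0.20 ± 0.25 (edgeR adjusted p = 0.619) and HIS1-3 at 0.06 ± 0.37 (edgeR adjusted p = 0.932), differences smaller than their standard errors. With the leaf score DRM2 stood at -2.01, still called, DRM1 at -0.36 and HIS1-3 at -0.08. These 3 comparisons share the WT libraries, so that a high or low WT library enters each of them.

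The mutants were also compared with each other, in the same model of all 16 libraries. Between the ckx3 ckx5-labelled libraries and d14-7, where 36.8% of loci were called, all 3 genes were higher in the former. DRM2 differed by 5.98 ± 0.41, or 63.2-fold (edgeR adjusted p = 2.59e-08), the 4th largest rise of all loci, and DRM1 by 3.18 ± 0.27 (9.08-fold, edgeR adjusted p = 2.17e-07). With the leaf score as a covariate these were 5.35 and 2.36 and were still called. HIS1-3 differed by 1.3 ± 0.48 (edgeR adjusted p = 0.045), and the groups overlapped by 1 library. That call was lost with the leaf score (0.39, edgeR adjusted p = 0.699), with limma-voom (adjusted p = 0.239) and without any 1 of 10 of the 16 libraries.

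All 3 genes were higher in scl28 than in d14-7, where 42.5% of loci were called by edgeR. For each of the 3 the libraries of scl28 and d14-7 did not overlap, and how many of all loci separate so is not given here. HIS1-3 differed most, by 3.29 ± 0.46 (9.8-fold, edgeR adjusted p = 3.85e-05), then DRM2 by 2.1 ± 0.46 (edgeR adjusted p = 0.00183) and DRM1 by 1.37 ± 0.26 (edgeR adjusted p = 0.000653). With the leaf score the difference was 2.55 for HIS1-3 and still called. DRM1 then stood at 0.68 (edgeR adjusted p = 0.117) and DRM2 at 1.57 (edgeR adjusted p = 0.0783), and DRM2 also missed the threshold with limma-voom (2.16, adjusted p = 0.0515). Against the ckx3 ckx5-labelled libraries, where 24.7% of loci were called, scl28 was lower for DRM2 (-3.88 ± 0.34, edgeR adjusted p = 3.55e-07) and DRM1 (-1.82 ± 0.25, edgeR adjusted p = 4.13e-05). HIS1-3 was higher in scl28 by 1.99 ± 0.41 (edgeR adjusted p = 0.00166). Fitted with the leaf score these were -3.78, -1.69 and 2.16, all still called.

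**Figure D3:**
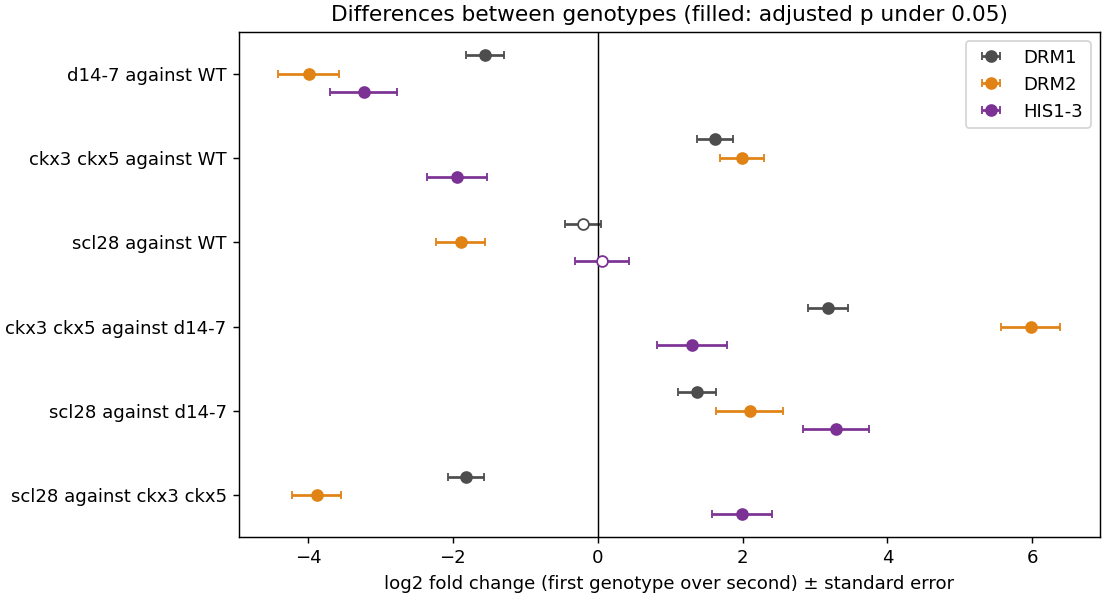
Log2 fold change of each gene in the 6 comparisons of genotypes, with bars of 1 standard error and filled points where the edgeR adjusted p was under 0.05. HIS1-3 lies on the other side of 0 from DRM1 and DRM2 in the ckx3 ckx5-labelled libraries against WT (-1.94 beside 1.62 and 1.99).

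The order of levels follows from these comparisons. For DRM1 it was the ckx3 ckx5-labelled libraries, then WT and scl28, which did not differ beyond their spread, then d14-7. For DRM2 each neighbour differed from the next by edgeR in the order ckx3 ckx5, WT, scl28 and d14-7, the last step with the exceptions just given. For HIS1-3, scl28 and WT did not differ beyond their spread at the top, and the ckx3 ckx5-labelled libraries and d14-7 differed only by the call that several settings removed.

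Levels of different genes were compared per kilobase of transcript. In WT the mean was 32.6 CPM per kb for DRM1, 11.1 for DRM2 and 8.17 for HIS1-3. DRM2 stood at 28.1% to 37.4% of the DRM1 level in WT, 35.3% to 52.8% in the ckx3 ckx5-labelled libraries, 7.68% to 13.7% in scl28 and 4.27% to 9.51% in d14-7. The log2 ratio of DRM2 to DRM1 was lower in d14-7 than in WT by 2.53 and in scl28 by 1.7, without overlap between groups (exact two-sided permutation p = 0.0286 each, the smallest that 4 against 4 libraries can give, adjusted p = 0.0381 over 12 tests). For the ckx3 ckx5-labelled libraries it stood 0.378 above WT (exact permutation p = 0.0857, adjusted p = 0.0935). By these tests, which were chosen after the values had been seen, DRM2 changed more than DRM1 on the log scale in d14-7 and in scl28. This was not shown for the ckx3 ckx5-labelled libraries.

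HIS1-3 stood at 20.3% to 28.4% of the DRM1 level per kilobase in WT and 23.3% to 44.1% in scl28. It was 1.31% to 3.12% in the ckx3 ckx5-labelled libraries and 4.99% to 11.2% in d14-7. The log2 ratio of HIS1-3 to DRM1 differed from WT by -3.6 in the ckx3 ckx5-labelled libraries and by -1.58 in d14-7 (exact permutation p = 0.0286, adjusted p = 0.0381 for each). In scl28 it differed by 0.296 (exact permutation p = 0.286). These ratio tests were chosen after the values had been seen.

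Across the 16 libraries the log2 levels of DRM1 and DRM2 correlated at 0.947, and those of HIS1-3 correlated at 0.282 with DRM1 and 0.295 with DRM2. With the genotype means taken off, the 3 correlations were 0.782, 0.772 and 0.606. By these deviations HIS1-3 ranked 916th among the loci tested for DRM1 and 645th for DRM2, so that many loci lay closer to each. With the deviations of all genotypes pooled, HIS1-3 correlated more strongly with DRM1 and DRM2 within genotypes than across them. The genotypes were not alike in this. In WT and in the ckx3 ckx5-labelled libraries the same replicate was highest for all 3 genes. In scl28 HIS1-3 was highest in replicate 2 (10.6 CPM), where DRM1 was lowest (20.7 CPM). In d14-7 it was lowest in replicate 4 (0.576 CPM), where DRM2 was highest (1.07 CPM). The correlations are descriptions over libraries that fall into 4 genotypes.

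Within DRM1, the share of the form that skips the cassette exon differed between genotypes. AT1G28330.1 held 50.2% ± 3.23 of DRM1 counts in WT (SD, n = 4), 62.1% ± 5.49 in scl28, 39.5% ± 3.21 in the ckx3 ckx5-labelled libraries and 34.8% ± 4.75 in d14-7. AT1G28330.2 held 44.1% ± 2.06, 31.9% ± 5.50, 52.5% ± 3.81 and 55.6% ± 5.85 in the same order. The shares of AT1G28330.1 in d14-7 (30.3% to 39.2%) and in the ckx3 ckx5-labelled libraries (35.9% to 43.5%) lay below all of WT (47.2% to 54.0%). The differences were -15.3 and -10.7 percentage points (exact two-sided permutation p = 0.0286, adjusted p = 0.0458 over 24 tests, for each).

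In scl28 the share of AT1G28330.2 was lower than in WT by 12.2 points (exact permutation p = 0.0286, adjusted p = 0.0458). The share of AT1G28330.1 stood 11.9 points higher, with scl28 replicate 4 at 53.9% just inside the WT range (exact permutation p = 0.0571, adjusted p = 0.0806). Between scl28 and d14-7 the share of AT1G28330.1 differed by 27.2 points, and between scl28 and the ckx3 ckx5-labelled libraries by 22.6 points (exact permutation p = 0.0286, adjusted p = 0.0458 for each). The ckx3 ckx5-labelled libraries and d14-7, at the opposite ends of the DRM1 level, differed by 4.66 points (exact permutation p = 0.2, adjusted p = 0.24). The form that also keeps the intron, AT1G28330.3, held 5.67% ± 1.72 in WT and 9.57% ± 1.58 in d14-7, a difference of 3.9 points (exact permutation p = 0.0286, adjusted p = 0.0458). Reads of the shared exons had to be divided among these models by the counting, which is not described in the sources used here, so that the shares are estimates.

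**Figure D4:**
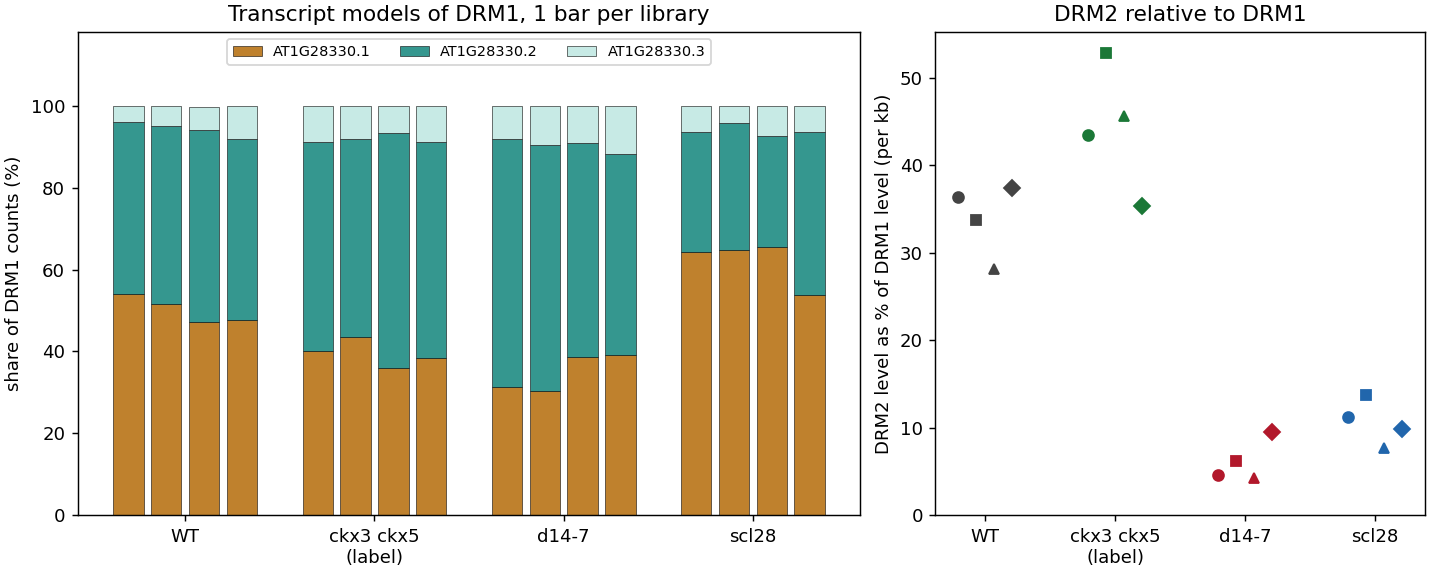
Left, the share of DRM1 counts in percent held by each of 3 transcript models, with 1 bar per library. Right, the DRM2 level as a percent of the DRM1 level per kilobase, with 1 point per library and marks for replicates as in the plot of levels; the form that skips the cassette exon held 62.1% on average in scl28 and 34.8% in d14-7.

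The transcript models were also tested by edgeR over all 26448 models that passed the filter. Of the 9 models 6 passed. In d14-7 against WT, where 26.2% of models were called, AT1G28330.1 changed by -2.04 ± 0.29 (edgeR adjusted p = 0.000316) and AT1G28330.2 by -1.26 ± 0.29 (edgeR adjusted p = 0.00665), while AT1G28330.3 stood at -0.94 ± 0.44 (edgeR adjusted p = 0.125). In the ckx3 ckx5-labelled libraries (20.6% called) all 3 rose, by 1.31, 1.85 and 1.97. In scl28 against WT (12.4% called) AT1G28330.1 stood at 0.13 ± 0.27 (edgeR adjusted p = 0.815), AT1G28330.2 at -0.67 ± 0.28 (edgeR adjusted p = 0.139) and AT1G28330.3 at -0.23 ± 0.43 (edgeR adjusted p = 0.79). Between scl28 and d14-7 (31.9% called) AT1G28330.1 differed by 2.16 ± 0.29 (edgeR adjusted p = 6.97e-05) and AT1G28330.2 by 0.59 ± 0.29 (edgeR adjusted p = 0.136). Against d14-7 the ckx3 ckx5-labelled libraries were higher for all 3 models (27.4% called) and scl28 was lower than them for all 3 (17.5% called).

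AT1G28330.4 had 0 counts in all libraries and AT1G28330.5 had 2 counts in 1 WT library. For HIS1-3 AT2G18050.1 carried all counts and AT2G18050.2 had 0, so that its calls were those of the locus in all 6 comparisons by edgeR. For DRM2 AT2G33830.2 carried 95.6% to 100% of the counts in each library and, as the locus of DRM2, was called in all 6 comparisons.

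The rarer DRM2 form AT2G33830.1 had 30 counts over the WT libraries (4 to 12 each), 160 in the ckx3 ckx5-labelled libraries (17 to 60 each), and 0 in d14-7 and in scl28. Taking 3 counts over a group as the limit that a count of 0 allows, its level was at least 9.6-fold lower in d14-7 than in WT and at least 9.77-fold lower in scl28. As a share of the locus, the limit was 3.8% in d14-7, which is not below the 2.15% of WT, and 0.838% in scl28, which is. The limits cover counting error only. By edgeR AT2G33830.1 was called lower than in WT in d14-7 (adjusted p = 0.0024) and in scl28 (adjusted p = 0.00322). The share of AT2G33830.2 was 100% in both, beside 97.5% in WT (exact permutation p = 0.0286, adjusted p = 0.0458 for each). That test does not weigh how few counts a share rests on. In d14-7 a share of AT2G33830.1 like that of WT could also give 0 counts at this depth, so that a lower share was not shown there.

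HIS1-3 was a small and variable fraction of the linker histone transcripts. It held 1.33% ± 0.72 of the counts of HIS1-3, AT1G06760 and AT2G30620 in WT (SD, n = 4), 1.25% ± 0.222 in scl28, 0.318% ± 0.17 in the ckx3 ckx5-labelled libraries and 0.154% ± 0.0459 in d14-7. The last 2 groups lay below all of WT and scl28. The ckx3 ckx5-labelled libraries did so narrowly, with a highest share of 0.538% beside a lowest of 0.54% in WT. The share was lower than in WT by 1.17 points in d14-7 and by 1.01 points in the ckx3 ckx5-labelled libraries (exact two-sided permutation p = 0.0286, adjusted p = 0.0429 over 6 tests, for each), and the difference in scl28 was -0.0782 points (exact permutation p = 0.857). By edgeR AT1G06760 stood at -0.14 ± 0.07 in d14-7 (adjusted p = 0.121), 0.17 ± 0.07 in the ckx3 ckx5-labelled libraries (adjusted p = 0.0696) and rose by 0.21 ± 0.07 in scl28 (adjusted p = 0.0471). AT2G30620 stood within 0.19 of WT in all 3 and was not called. AT1G06760 has an antisense partner, and the library kit does not mark strand, so that their reads cannot be told apart.

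Of the other loci annotated to the dormancy/auxin associated family, only AT1G56220 had enough counts to be tested. It was at 177 ± 44.2 CPM in WT, 207 ± 20.8 CPM in the ckx3 ckx5-labelled libraries, 163 ± 14.2 CPM in scl28 and 77.7 ± 12.3 CPM in d14-7 (SD, n = 4). It fell in d14-7 by 1.19 on the log2 scale (edgeR adjusted p = 5.93e-05). In the ckx3 ckx5-labelled libraries, where DRM1 and DRM2 rose, it stood at 0.22 ± 0.15 (edgeR adjusted p = 0.278). AT1G54070 and AT5G44300 had at most 6 counts in any group.

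The dormancy regulators that act with strigolactone were set beside the 3 genes. In d14-7 against WT 5 of 6 fell and 0 rose, where 38.7% of all loci were called, with a median of -3.26 beside -0.01 over all loci. BRC1 changed by -4.22 ± 0.27, HB40 by -4.45 ± 0.27, HB21 by -3.27 ± 0.36, HB53 by -3.25 ± 0.35 and NCED3 by -2.94 ± 0.41 (edgeR adjusted p = 0.000109 for NCED3 and lower for the others). BRC2, a relative of BRC1, stood at 0.05 ± 0.16.

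Of these 6, 2 rose and 0 fell in the ckx3 ckx5-labelled libraries, with a median of 0.24 beside 0.01, a share called near the 29.6% of all loci. BRC1 rose by 0.65 ± 0.19 (edgeR adjusted p = 0.0177) and HB40 by 0.56 ± 0.18 (edgeR adjusted p = 0.0247). NCED3 stood at 0.09 ± 0.34 there. In scl28, where 19.8% of all loci were called, only HB40 of the 6 rose (0.74 ± 0.18, edgeR adjusted p = 0.00782) and 0 fell, while DRM2 fell.

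**Figure D5:**
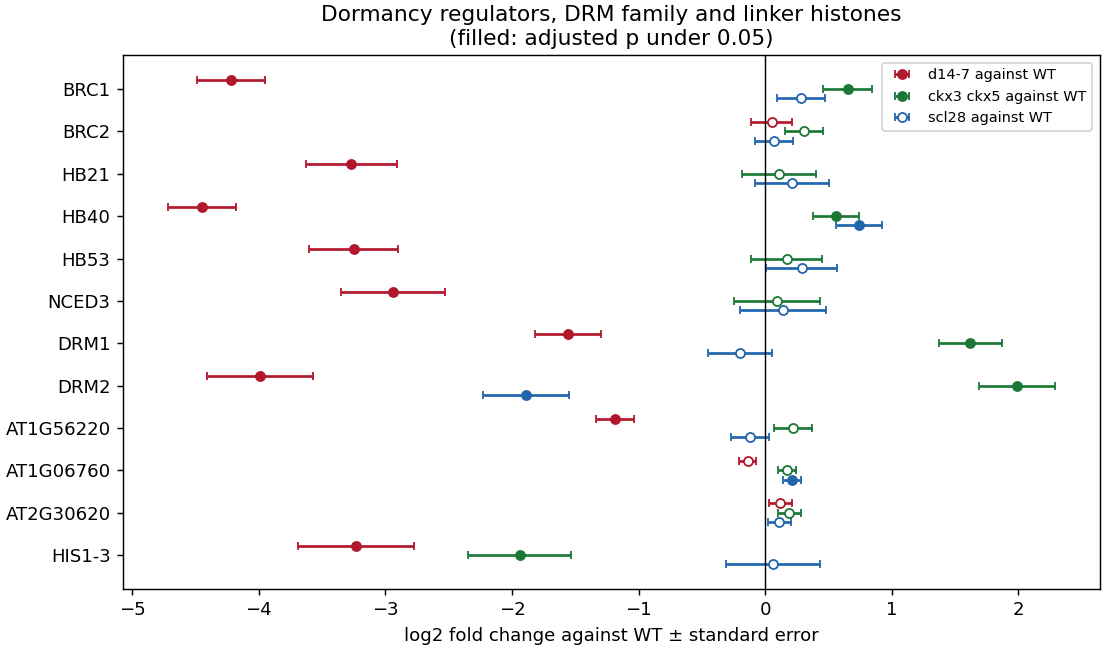
Log2 fold changes against WT with bars of 1 standard error for 6 dormancy regulators, 3 loci of the DRM family and 3 linker histones, filled where the edgeR adjusted p was under 0.05. In d14-7 BRC1, HB21, HB40, HB53 and NCED3 lie at -2.94 or lower together with DRM2 and HIS1-3, while in the other mutants DRM2 lies farther from 0 than any of these regulators.

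Abscisic acid response genes were examined because NCED3 makes the hormone and HIS1-3 responds to it. In d14-7 all 19 tested of 20 listed fell, with a median of -0.87, beside 38.7% of all loci called. They include the protein phosphatase gene HAI1 (-2.30 ± 0.26), RD29B (-2.22 ± 0.44) and the transcription factor gene ABF3 (-1.03 ± 0.12, edgeR adjusted p = 2.31e-05). A mixed count, 4 risen and 6 fallen (median -0.19), was found in the ckx3 ckx5-labelled libraries, beside 29.6% of all loci called. ABF3 (-0.68 ± 0.12), HB12 (-0.98 ± 0.13) and RD29B (-1.81 ± 0.42) fell there as HIS1-3 did, whereas the cold-regulated gene COR15A rose by 1.05 ± 0.14. In scl28 5 rose and 3 fell (median 0.27), beside 19.8% of all loci called, with KIN2 at 1.22 ± 0.17 and RD29B at -1.23 ± 0.40.

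Carbon starvation genes were examined because DRM1 and DRM2 respond to sugar supply. Of 15 listed and tested, 9 fell and 0 rose in d14-7 (median -0.54, beside 38.7% of all loci called), among them the branched-chain aminotransferase gene BCAT2 (-1.74 ± 0.23), the asparagine synthetase gene ASN1 (-1.26 ± 0.30) and TPS10 (-1.05 ± 0.14), of the trehalose phosphate synthase family. Of the same 15, 4 rose and 2 fell in the ckx3 ckx5-labelled libraries (median 0.13, beside 29.6% of all loci called). DIN10 rose by 2.22 ± 0.25 and ATL8 by 1.19 ± 0.22, while EXL1 changed by -2.16 ± 0.37. In scl28 5 fell and 0 rose (median -0.54, beside 19.8% of all loci called), with ASN1 at -1.86 ± 0.31 and SEN1 at -1.59 ± 0.54.

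Of 8 auxin response genes, 4 rose and 1 fell in d14-7 (median 0.41), 3 rose and 0 fell in the ckx3 ckx5-labelled libraries (median 0.44), and 0 rose and 2 fell in scl28 (median -0.21). Of all loci 38.7%, 29.6% and 19.8% were called in these comparisons, so that the shares of the last 2 lie near the background. IAA29 rose most in d14-7, by 3.59 ± 0.49. Of 9 cell division genes, 6 rose in d14-7 (median 0.51), 4 in the ckx3 ckx5-labelled libraries (median 0.42) and 4 in scl28 (median 0.37), and 0 fell in any of the 3, beside the same shares of all loci called. CDKB2;1, a mitotic kinase gene, rose in all 3, by 0.22, 0.43 and 0.44.

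Markers of other tissues and of handling moved with genotype as well. The summed level of the 6 leaf photosynthesis markers was 12700 to 21000 CPM in WT, 14400 to 16000 in the ckx3 ckx5-labelled libraries, 16900 to 20800 in d14-7 and 12800 to 14100 in scl28. The 9 clock genes summed to 560 to 594, 285 to 325, 432 to 461 and 1030 to 1100 CPM in the same order, without overlap between genotypes. Most of the WT sum was LHY and CCA1 (means of 258 and 138 CPM), which were at 21.2 and 25.8 CPM in the ckx3 ckx5-labelled libraries. There 3 of the 9 fell and 6 rose, among them PRR5 (3.8 ± 0.18) and LUX (1.16 ± 0.09), beside 29.6% of all loci called. In scl28 5 rose and 1 fell, with LHY at 1.03 ± 0.07 and CCA1 at 1.3 ± 0.07, beside 19.8% of all loci called. In d14-7 1 rose and 4 fell, beside 38.7%. The sum of the 4 root markers was 171 to 294, 193 to 232, 386 to 456 and 98.8 to 151 CPM, and nearly all of it was PYK10 (means of 214, 210, 411 and 126 CPM). The other 3 had too few counts to be tested, and 1 was at 0 throughout scl28. The 5 wounding and touch genes summed to 133 to 258, 75.4 to 106, 134 to 254 and 94.9 to 172 CPM. WRKY33, WRKY40 and TCH3 fell in both the ckx3 ckx5-labelled libraries and scl28. TCH4 was not called in either, and CML24 fell only in the ckx3 ckx5-labelled libraries. The 5 xylem markers summed to 211 to 242, 247 to 278, 265 to 311 and 169 to 219 CPM. XCP1 and XCP2 rose in d14-7 and in the ckx3 ckx5-labelled libraries, while CESA4, CESA7 and CESA8 were not called in either. The 5 flower markers summed to 3.48 to 7.15, 4.73 to 18.0, 5.87 to 8.15 and 6.01 to 12 CPM. AP1, AP3 and PI rose in the ckx3 ckx5-labelled libraries, while AG and SEP3 were not called there. The part of these in the results was not tested, and for leaf only the values with the covariate are given.

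The loci most like each gene were found by the Pearson correlation of log2 CPM over the 16 libraries among the loci tested. For DRM1 they were UBC2 (0.983), RD19 (0.979), SNRK2.2 (0.976), AT4G14270 (0.974) and CBSX3 (0.974). For DRM2 they were AT3G10020 (0.985), AT4G14270 (0.978), AT3G23080 (0.971), AT3G15450 (0.969) and A/N-InvC (0.963), a neutral invertase gene. For HIS1-3 they were ABF3 (0.973), AT5G25770 (0.968), SDR1 (0.966), AT5G20700 (0.965) and AT4G36195 (0.964). AT4G14270, annotated as a polyadenylate-binding protein interacting protein, was the only locus named for both DRM1 and DRM2. It changed by -2.22 ± 0.23 in d14-7 and by 1.59 ± 0.21 in the ckx3 ckx5-labelled libraries. In scl28 it stood at -0.44 ± 0.21 (edgeR adjusted p = 0.15). DRM2 ranked 40th for DRM1, and DRM1 14th for DRM2, and with the genotype means taken off they ranked 823rd and 50th.

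By these deviations from the genotype means, the nearest loci were CSY3 (0.961), a citrate synthase gene, IQD28 (0.958), AT2G43660 (0.956), AT5G06370 (0.955) and AT1G19660 (0.946) for DRM1. They were AT5G10946 (0.922), AT1G44770 (0.897), AT3G10020 (0.896), AT3G15450 (0.895) and AT1G27540 (0.889) for DRM2. They were RD21A (0.946), a cysteine protease gene, MT2A (0.934), a metallothionein gene, AT2G42780 (0.932), SUS3 (0.928), a sucrose synthase gene, and AT2G15695 (0.925) for HIS1-3. AT3G10020 and AT3G15450 were near DRM2 by both measures.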

How the data were processed

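Per the labels, RNA was made into libraries with a NEBNext Ultra kit, which does not mark strand. Estimated counts for each transcript model were deposited by the authors as whole numbers, together with a normalized table. That deposited signal was, within 1%, a fixed multiple of the counts in each library for 98.04% of values. The submitters' processing notes name TAIR10 and DESeq2, and for the aligner and the counting tool the entry is: not given in the sources used here. Every value column was matched to a sample.

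Counts were summed to loci and tested with the quasi-likelihood test of edgeR 4.0.16 (R 4.3.3; TMM, filterByExpr, 1 model of 4 genotypes, common dispersion 0.016), with Benjamini-Hochberg adjustment over all 20947 loci and a threshold of 0.05. Transcript models were fitted alike. CPM per kb divides each model by its exon length. Shares and ratios were compared by exact permutation tests (SciPy 1.17.1). Scripts were tested on simulated data. Sequences, positions and names come from RefSeq TAIR10.1, which holds 32835 of the loci; its gene models may differ from those the authors counted.

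The members, the lists and the rule for named genes (the 3 members, the listed genes, and the 5 nearest loci by each correlation) were chosen with earlier results of these data known. Alternatives were RLE factors, no filter, DESeq2 1.42.0, limma-voom (limma 3.58.1), only the 2 groups compared, replicate blocks, the leaf score, and leaving out each library. No 2 libraries of a genotype agreed within sampling noise (chi-square per locus 4.61 to 90.2). The p-values measure the spread between pools of plants.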

Additional observations from a re-analysis of the deposited data

Results flagged for a closer look

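In d14-7 the DRM2 level of replicate 4 (1.07 CPM) stood apart from the other 3 libraries (0.421 to 0.528 CPM). Its gap to the nearest was 0.835 of the range, above Dixon's critical value for 4 samples. In scl28 the share of AT1G28330.1 in DRM1 was 53.9% in replicate 4 and up to 65.5% in the others, with a gap of 0.888 of the range. Chance flags about 1 in 20 groups, and 30 groups were examined.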

How the results depend on the processing

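Each of the 3 genes in each of the 6 comparisons was recomputed under 24 alternatives, of which 409 values kept their direction and side of the threshold, 19 lost the call and 4 changed sign. The sign changes were in scl28 against WT, where DRM1 and HIS1-3 were not called: DRM1 ran from -0.43 to 0.14 and HIS1-3 from -0.21 to 0.53 without 1 library each (0.14 without WT replicate 4, -0.21 without WT replicate 1, -0.09 without scl28 replicate 2), and HIS1-3 was -0.08 with the leaf score. The call of HIS1-3 between the ckx3 ckx5-labelled libraries and d14-7 was lost with no filter (1.32, edgeR adjusted p = 0.0973), limma-voom (1.16, adjusted p = 0.239), the leaf score (0.39, edgeR adjusted p = 0.699) and without 1 of 10 libraries: WT replicate 2 or 3, ckx3 ckx5 replicate 1 or 2, any d14-7 replicate, or scl28 replicate 3 or 4 (0.94 to 1.54 over all 16, edgeR adjusted p 0.0199 to 0.163). Between scl28 and d14-7 calls were lost with the leaf score for DRM1 (0.68) and DRM2 (1.57), and with limma-voom for DRM2 (2.16). The cause was not tested. Replicate numbers did not pair the libraries: same-numbered libraries deviated with correlations of -0.28 to 0.34 by title (4 of 24 over 0.1) and -0.28 to 0.19 by library name (2 of 16). With the replicate block HIS1-3 between the ckx3 ckx5-labelled libraries and d14-7 stood at 1.3 by title (edgeR adjusted p = 0.0609) and 1.26 by library name (0.116), and between scl28 and the ckx3 ckx5-labelled libraries at 1.82 by library name (0.0535), and no other call of the 3 genes was lost under a block. Of all loci, 8101 were called in d14-7 against WT, and 5034 with only those groups, 4906 with the block by library name, 3897 with the leaf score, and 5231 or 5026 without WT replicate 3 or 4. In scl28 against WT 4155 became 2171 with only those groups and 6549 with the leaf score. With the leaf score 7709 became 4468 between the ckx3 ckx5-labelled libraries and d14-7, and 8899 became 5115 between scl28 and d14-7. With the block by library name 8899 became 5121, and 5169 became 3261 between scl28 and the ckx3 ckx5-labelled libraries. Without 1 library the exact test of a share or ratio cannot go below 0.0571, so that these are values only, and each moved by no more than 1 SD. DRM2 in d14-7 rests on 10 to 37 counts per library, which limits its fold change.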
